A study of Mus musculus with 6 samples.

Results

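Collagen chains were measured in the gastrocnemius, a calf muscle of mainly fast fibres, of 3 young male mice aged 13 weeks and 3 aged male mice aged 26 months. The mice were C57BL/6J, an inbred laboratory strain, and no transgene or treatment is named for either group. One single-colour Agilent array was hybridized per mouse, so n = 3 in each group throughout. The collagen genes were all genes whose symbol reads Col, a number, a and a number, found through the RefSeq accession of each probe that is not a control. Of 55681 probes, 64 belonged to 44 such genes. After the filter on dim probes 31 collagen genes remained, among 20900 genes that were tested in all.

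A collagen is built from alpha chains that wind around each other into a triple helix, and each chain has its own gene. Fibrillar collagens form the banded fibres of tendon and of the connective tissue around muscle fibres. The fibril-associated collagens with interrupted triple helices, or FACITs, sit on the surface of such fibres or at junctions between tissues. Collagen IV forms the network of the basement membrane that wraps each muscle fibre, and collagen VI forms beaded filaments between that membrane and the fibres outside it. In muscle most collagen mRNA is made by fibroblasts of the connective tissue. Since whole muscle was used, fewer cells of a type and less RNA per cell cannot be told apart in any value below.

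The promoters of 4 chains are shown as examples, and their relation to the age differences was not tested. Col1a2 and Col3a1 are chains of abundant muscle fibrils, Col11a1 passed the test between the ages, and Col16a1 is a FACIT with separate age groups. Each is the 250 bases before the gene's start on the plus strand, from RefSeq, build GRCm38.p6. The regions are chr6:4505368-4505617 for Col1a2, chr1:45311288-45311537 for Col3a1, chr3:114030290-114030539 for Col11a1 and chr4:130047590-130047839 for Col16a1. Capitals mark matches, on either strand, to CCAAT, the box bound by the factor NF-Y, and to GGGCGG, the GC box bound by Sp1 and related factors.
Col1a2: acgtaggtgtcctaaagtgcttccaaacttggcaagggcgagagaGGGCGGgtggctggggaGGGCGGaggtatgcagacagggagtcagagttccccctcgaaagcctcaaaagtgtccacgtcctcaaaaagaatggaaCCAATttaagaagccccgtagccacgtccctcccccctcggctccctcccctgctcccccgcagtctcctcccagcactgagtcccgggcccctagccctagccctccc
Col3a1: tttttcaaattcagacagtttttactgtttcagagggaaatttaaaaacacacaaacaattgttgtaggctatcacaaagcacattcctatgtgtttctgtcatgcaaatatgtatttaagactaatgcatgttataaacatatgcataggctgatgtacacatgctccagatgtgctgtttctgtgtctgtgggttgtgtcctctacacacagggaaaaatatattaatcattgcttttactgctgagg
Col11a1: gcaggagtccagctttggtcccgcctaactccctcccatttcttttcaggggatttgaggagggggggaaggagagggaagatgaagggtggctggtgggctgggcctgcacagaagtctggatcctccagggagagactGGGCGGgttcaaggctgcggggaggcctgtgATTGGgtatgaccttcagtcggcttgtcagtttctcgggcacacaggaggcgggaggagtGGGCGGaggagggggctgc
Col16a1: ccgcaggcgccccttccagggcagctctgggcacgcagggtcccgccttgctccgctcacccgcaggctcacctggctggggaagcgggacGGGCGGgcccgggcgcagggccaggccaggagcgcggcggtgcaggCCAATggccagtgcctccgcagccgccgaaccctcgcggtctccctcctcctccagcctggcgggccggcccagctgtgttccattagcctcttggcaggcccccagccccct
Col1a2 and Col11a1 each held 1 CCAAT and 2 GGGCGG matches, Col16a1 held 1 of each, and Col3a1 held neither. The GC content was 35.2% in the Col3a1 window and 62.0%, 62.4% and 75.6% in those of Col1a2, Col11a1 and Col16a1. Of 44 collagen genes, 35 had a promoter in the table. CCAAT was found in 12 of these 35 (34.3%) and in 34.5% of all 27025 promoters of the same length. GGGCGG was found in 21 of the 35 (60.0%) and in 32.9% of all promoters. A match describes the letters of the window and is not a measured binding site.

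Between 48.7% and 53.8% of all probes were well above background on an array, and no spot was saturated. All arrays lay on 1 slide and were read in 1 scan. The 3 young mice and aged mouse 1 were in row 1 of the slide, and aged mice 2 and 3 were in row 2. Every level below is a log2 signal after subtraction of the array's 75th percentile, so that 0 is the 75th percentile of the probes on that array and 1 unit is a doubling. A level is compared across mice at the same probe, and levels of different genes are not ranked as expression. Signals of different genes are added only in the summed levels of marker lists, where bright probes weigh most. The markers of muscle fibres were bright, with Tnnt3 between 9.66 and 10.12 on all 6 arrays, and their median difference between ages was -0.17 over 11 genes tested.

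In aged mice compared with young mice, 2 collagen chains fell past the threshold of an adjusted p of 0.05 in limma, and none rose. They were Col22a1, a FACIT chain of the muscle-tendon junction, and Col11a1, a minor fibrillar chain best known from cartilage. Over all genes, 53 of 20900 passed that threshold (0.254%), 12 of them lower in aged mice (0.0574%), and the 2 of 31 collagen genes were 6.45%. Col11a1 entered the test only through the young arrays, and with a filter on all 6 arrays Col22a1 was the 1 collagen gene called of 25, beside 0.189% of all genes. At an unadjusted p under 0.05, 12 of 31 collagen genes were lower (38.7%) and 0 were higher, beside 8.36% lower and 6.07% higher over all genes. The mean was lower in aged mice for 23 of 31 collagen genes (74.2%) and for 56.9% of all genes. The median difference was -0.32 over the collagen genes and -0.06 over all genes. Without aged mouse 1, 19 of 31 means were lower (54.0% of all genes). At an unadjusted p under 0.05, 11 collagen genes were then lower (10.7% of all genes) and 1, Col14a1, was higher (1539 of all 20900 genes). The collagen median was then -0.14 beside -0.04 over all genes. With the slide row as a block, where aged mouse 1 alone is set against the young mice, the collagen median was -0.90 beside -0.07 over all genes. No collagen gene then passed the adjusted threshold, beside 0.196% of all genes.

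Some of these genes entered the test only because the young mice had signal. The probe of Col11a1 and the probe used for Col9a1 were not well above background on any aged array. For 24 collagen genes the probe was well above background on all 6 arrays, and there the median was -0.30. Of these 24, 8 were lower at an unadjusted p under 0.05 (33.3%), beside 8.23% of the 18526 genes measured as well, and 18 had a lower mean, beside 57.6%. The age groups did not overlap, with aged mice lower, for 13 of 31 collagen genes (41.9%) beside 13.9% of all genes. They did not overlap with aged mice higher for Col7a1 and Col23a1, beside 7.92% of all genes.

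**Figure D1:**
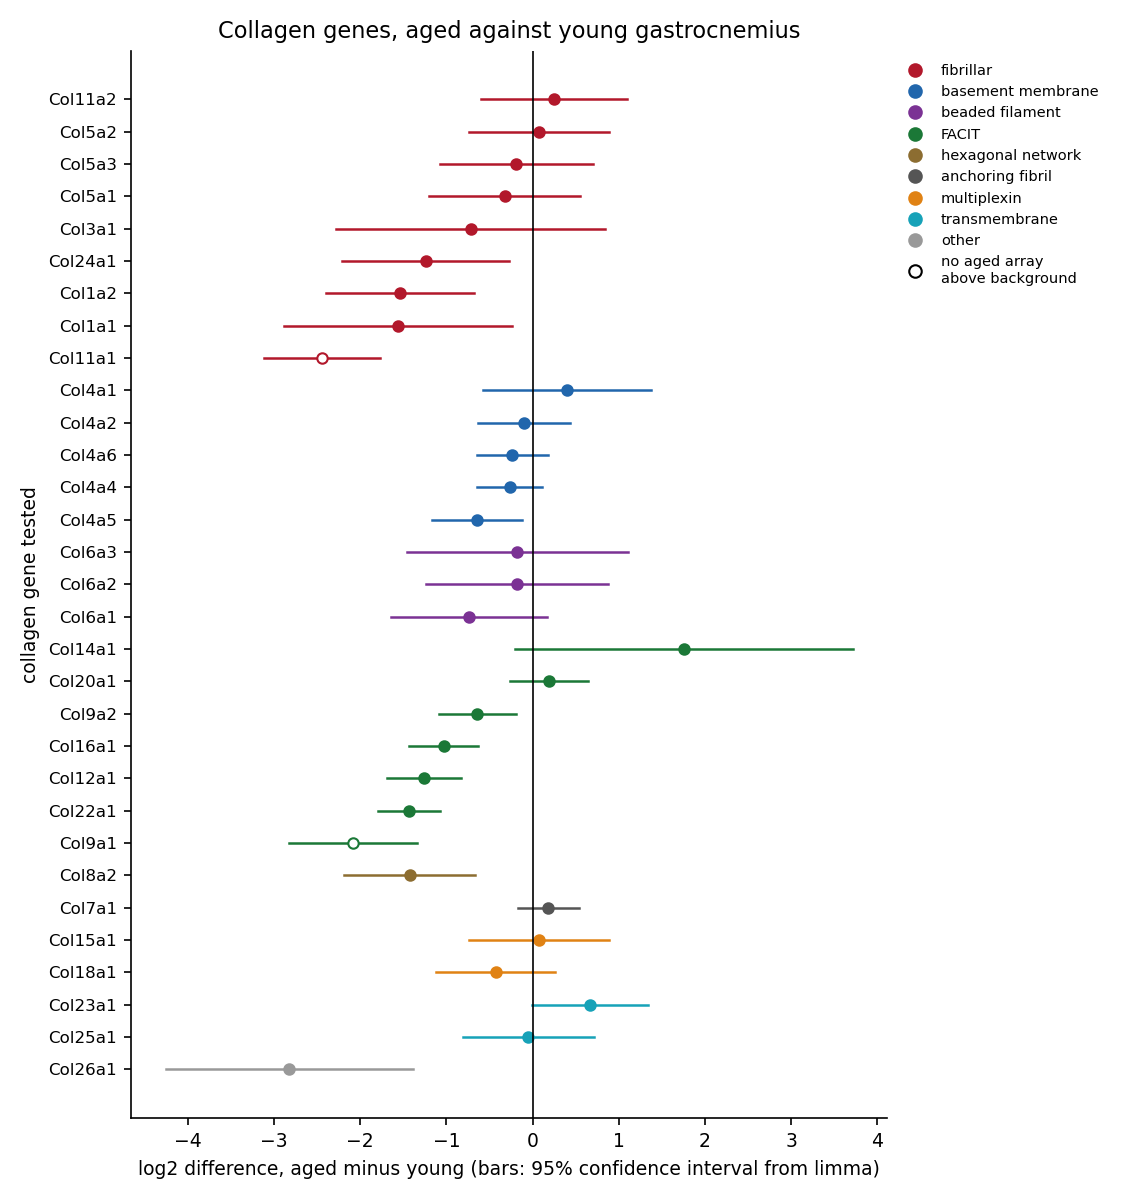
Log2 difference of the 31 collagen genes tested, aged minus young, with 95% confidence intervals from limma and n = 3 mice per group, ordered by class. Open circles are chains whose probe used was not well above background on any aged array and whose position is not a measured fold, and 23 of 31 points lie left of 0.

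The FACIT class had 7 of its 9 chains on the array tested, with 5 lower in aged mice and a median difference of -1.03. The log2 signal of Col22a1 was 3.82, 3.78 and 3.67 for the young mice and 2.24, 2.44 and 2.27 for the aged mice, each in the order of their numbers. All aged mice were below all young mice, and the gap between the groups was larger than the spread within either. The fall was 2.71-fold (log2 difference -1.44, SE 0.15, adjusted p = 0.0262 in limma, 95% confidence interval -1.80 to -1.08). The adjusted p lay between 0.0146 and 0.131 over 17 alternative settings, 8 of which kept the call, while the difference stayed between -1.59 and -1.37. Leaving out any mouse other than aged mouse 1 ended the call, and with the slide row as a block the difference was -1.52 (adjusted p = 0.0888).

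Col12a1 and Col16a1 code for FACIT chains of collagen XII, a homotrimer of dense connective tissue and tendon, and of collagen XVI, found near small fibrils and in several tissues. Col12a1 was at -1.60, -1.38 and -1.10 in young mice and at -2.70, -2.60 and -2.55 in aged mice. Col16a1 was at 1.72, 1.96 and 1.85 in young mice and at 1.02, 0.69 and 0.74 in aged mice. Neither chain had groups that overlapped. The aged mean was 2.39-fold lower for Col12a1 (log2 difference -1.26, SE 0.18) and 2.04-fold lower for Col16a1 (-1.03, SE 0.17), and neither passed the threshold in limma (adjusted p = 0.0644 and 0.086). With normexp the difference of Col12a1 was -0.73. The other 2 probes of Col16a1 gave log2 differences of -1.14 and -0.37.

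Collagen IX is a FACIT of cartilage fibrils. At the probe used, Col9a1 was at -1.47, -2.62 and -2.34 in young mice and at -4.02, -4.26 and -4.40 in aged mice, where it was not well above background on any array. It did not pass the threshold (adjusted p = 0.0674 in limma), and the fitted difference of -2.09 was -0.81 with normexp background correction. The second probe of Col9a1, not kept, was well above background on 1 aged array and no young array, with a difference of -0.07, so no fold is given. Col9a2 was well above background on all arrays, with separate groups and a log2 difference of -0.64 (adjusted p = 0.228), or -0.31 with normexp. Of the 8 cartilage and bone markers 2 could be tested, Sox9 between -2.21 and -0.96 and Acan between -3.89 and -2.91.

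The other FACIT chains tested had no lower mean at the probe used. Col20a1 was at -1.34, -1.20 and -1.54 in young mice and at -1.20, -0.92 and -1.39 in aged mice, so the groups overlapped at this probe (log2 difference 0.19, SE 0.19, adjusted p = 0.665). The second probe of Col20a1 gave 0.30 with aged mice higher and groups narrowly apart. The nearest values there were -1.45 in young mouse 1 and -1.40 in aged mouse 1. Col14a1, the FACIT chain of collagen XIV on mature fibrils, gave a log2 difference of 1.75 with an SE of 0.82 (adjusted p = 0.39). Its second probe gave -0.13, so the probes of Col14a1 disagree and no direction is given.

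**Figure D2:**
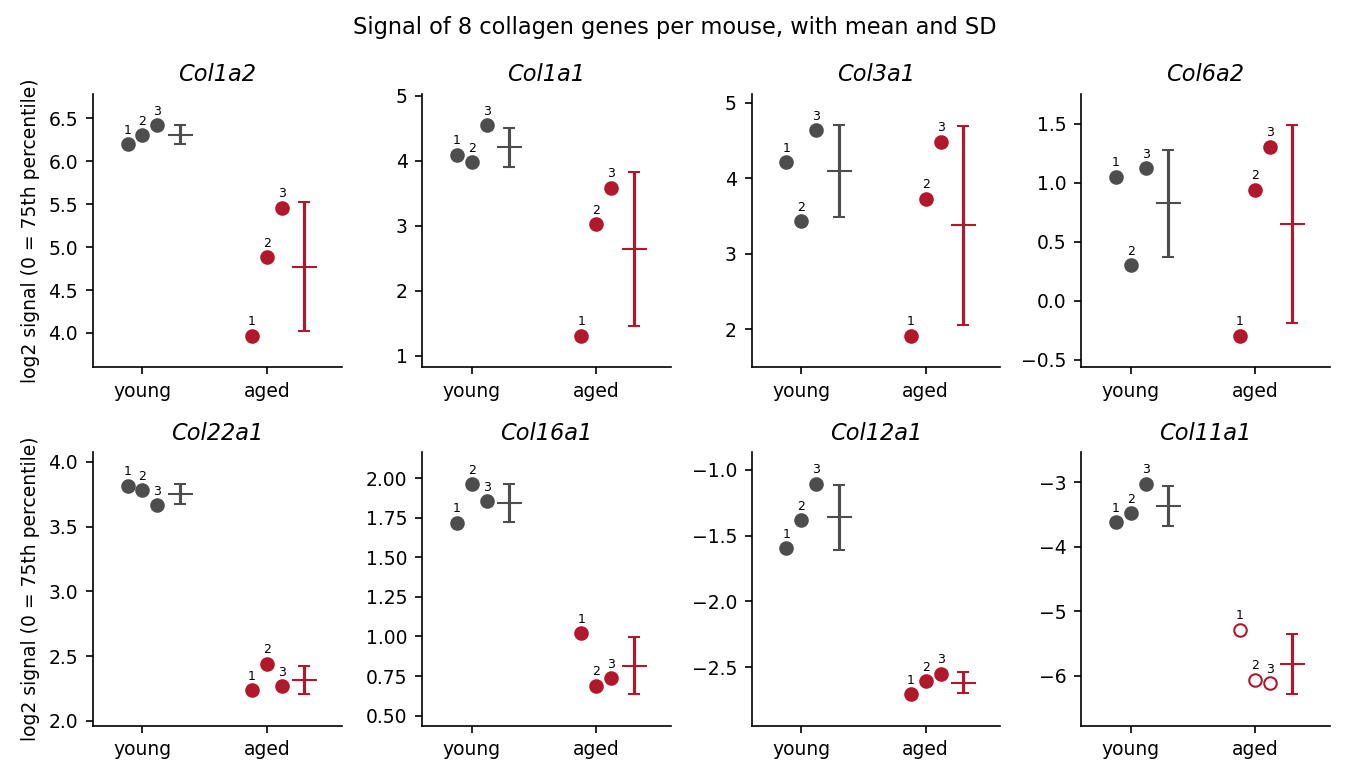
Log2 signal of 8 collagen genes in each mouse (points, numbered by mouse; 0 is the array's 75th percentile), with the group mean and SD (n = 3) to the right; each panel has its own vertical scale and open circles were not well above background on any array of the group. Col22a1, Col16a1 and Col12a1 had separate age groups with narrow spreads, and aged mouse 1 was the lowest of all for Col1a2, Col1a1, Col3a1 and Col6a2.

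The fibrillar class had 9 of 11 chains tested, with 7 lower in aged mice and a median of -0.72, but the aged mice differed widely. Col1a1 and Col1a2 code for the chains of collagen I, the main fibre of muscle connective tissue and tendon. Col1a1 was at 4.10, 3.98 and 4.55 in young mice and at 1.31, 3.03 and 3.59 in aged mice. Col1a2 was at 6.20, 6.30 and 6.42 in young mice and at 3.97, 4.88 and 5.46 in aged mice. All aged values were below all young values for both chains, and aged mouse 1 was the lowest. The aged mean of Col1a1 was 2.95-fold lower (log2 difference -1.56, SE 0.56) and that of Col1a2 2.90-fold lower (-1.54, SE 0.36), but neither passed the threshold in limma (adjusted p = 0.291 and 0.163). Without aged mouse 1 the log2 differences were -0.90 and -1.14. Aged mouse 1 set against the young mice in the same slide row differed by -2.89 and -2.34.

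Collagen III, coded by Col3a1, is the other abundant fibrillar collagen of muscle connective tissue. Col3a1 was at 4.21, 3.43 and 4.64 in young mice and at 1.92, 3.73 and 4.48 in aged mice. Aged mouse 1 was 2.17 below the young mean, while aged mice 2 and 3 lay within the range of the young mice. The log2 difference of -0.72 (SE 0.66, adjusted p = 0.639 in limma) had a 95% confidence interval of -2.28 to 0.84. It was 0.01 without aged mouse 1.

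Col11a1 was at -3.62, -3.48 and -3.02 in young mice and at -5.28, -6.06 and -6.11 in aged mice, all of the latter not well above background. The fall passed the threshold (adjusted p = 0.0349 in limma) through a filter that only the young arrays met. On the scale used here the bound is at least 1.46-fold lower in aged mice, or 0.54 in log2. The fitted difference of -2.44 is no measured fold: with normexp it was -0.47 (adjusted p = 0.206), a smaller fall than that bound. The adjusted p lay between 0.0108 and 0.206 over 16 alternatives, 6 of which kept the call, and leaving out any mouse other than aged mouse 1 ended it. With the slide row as a block the adjusted p was 0.1. Col24a1, a minor fibrillar chain, gave -1.24 (adjusted p = 0.261), or -0.59 with normexp, and was well above background on 1 aged array. The chains of collagen V, which is built into collagen I fibrils and limits their width, gave log2 differences of -0.32 (Col5a1), 0.07 (Col5a2) and -0.19 (Col5a3), all with overlapping groups. Col11a2 gave 0.25, which was -0.01 with normexp background correction, and Col5a2 was at -0.07 with median scaling.

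Over the fibrillar chains well above background on all arrays the median was -0.32. The median fibrillar chain was at -0.93, -0.37 and 0.03 from the young mean on the arrays of aged mice 1 to 3. Without aged mouse 1 the class median was -0.02. The FACIT medians by mouse were -0.82, -1.16 and -1.11.

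The beaded filament class had 3 of 6 chains tested, those of the main form of collagen VI. Col6a1 was at 4.45, 3.89 and 4.83 in young mice and at 2.91, 3.92 and 4.13 in aged mice. Col6a2 was at 1.05, 0.30 and 1.12 in young mice and at -0.30, 0.94 and 1.31 in aged mice. Col6a3 was at 2.70, 1.98 and 3.38 in young mice and at 1.42, 2.93 and 3.18 in aged mice. In all of them aged mouse 1 was below every young mouse and the groups overlapped. The log2 differences were -0.74, -0.18 and -0.18 (adjusted p = 0.426, 0.874 and 0.895 in limma). Without aged mouse 1 the differences of Col6a2 and Col6a3 turned to 0.30 and 0.37, and the class median turned from -0.18 to 0.30.

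**Figure D3:**
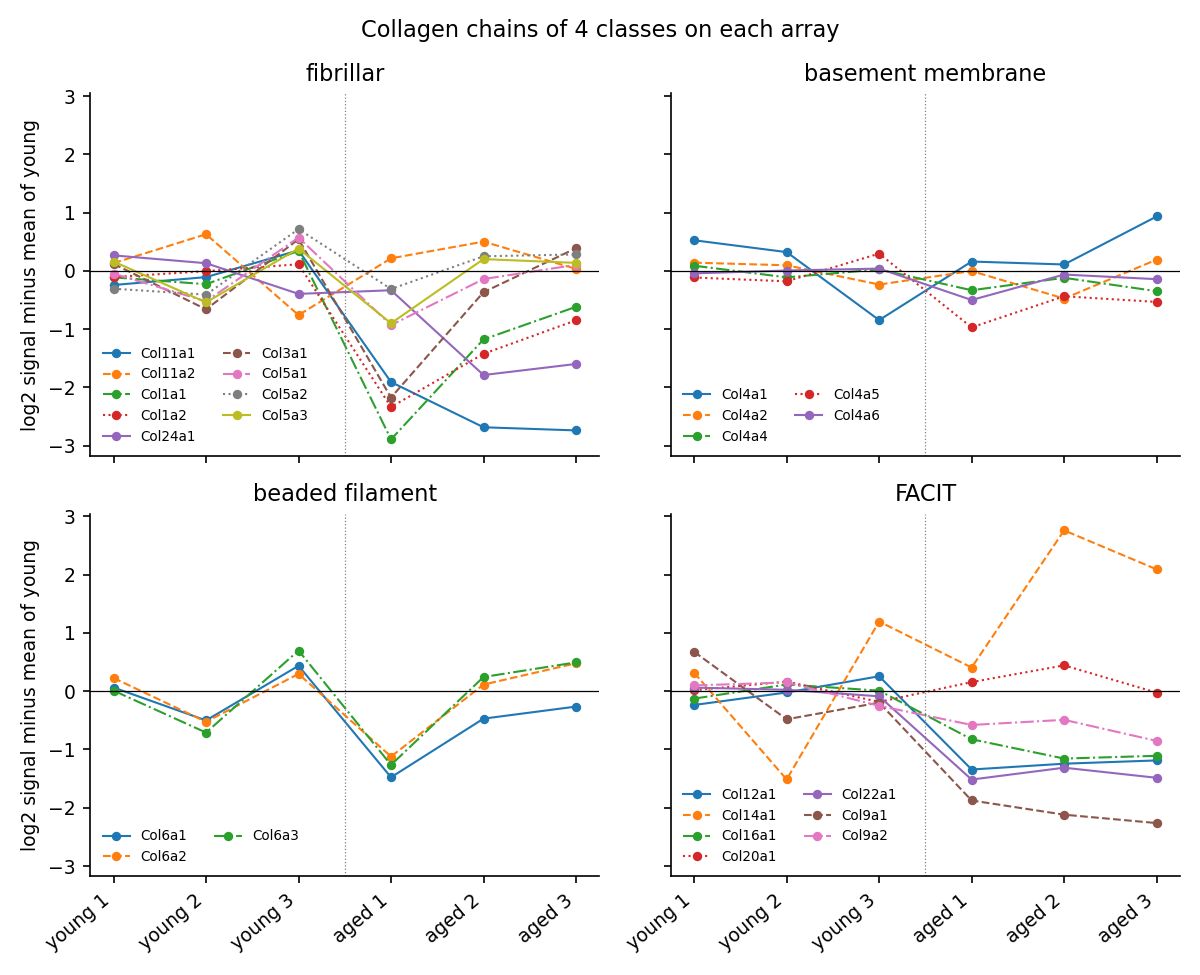
Log2 signal of each tested chain minus the mean of the young mice, for the 4 classes on each array; lines only join the points of 1 chain. Most fibrillar and all beaded filament chains dipped on the array of aged mouse 1. At the probes used, the FACIT chains Col22a1, Col12a1, Col16a1, Col9a1 and Col9a2 were below the young mice on all 3 aged arrays. So were the fibrillar chains Col1a1, Col1a2 and Col11a1 and the basement membrane chains Col4a4, Col4a5 and Col4a6.

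The basement membrane class had 5 of 6 chains tested, with 4 lower in aged mice and a median of -0.24. Col4a1 and Col4a2 code for the chains of the common form of collagen IV around muscle fibres and vessels. Col4a1 was at 3.33, 3.13 and 1.96 in young mice and at 2.96, 2.91 and 3.74 in aged mice. Col4a2 was at 2.69, 2.64 and 2.31 in young mice and at 2.54, 2.07 and 2.74 in aged mice. Both pairs of groups overlapped, with log2 differences of 0.40 (SE 0.41, adjusted p = 0.678 in limma) and -0.10 (SE 0.23, adjusted p = 0.865), the second of which was 0.06 with normexp. The sign of Col4a1 turned without young mouse 3, whose value was the lowest of the 6.

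Col4a4 was at -0.74, -0.94 and -0.81 in young mice and at -1.17, -0.95 and -1.18 in aged mice. At this probe its groups met without overlap, and the difference of -0.27 did not pass the threshold (SE 0.16, adjusted p = 0.474 in limma). The second kept probe of Col4a4 gave -0.16. Aged mice 1 and 2 were above every young mouse there, and aged mouse 3 was below. Col4a5 and Col4a6, chains of the minor forms of the network, had separate groups at the probes used. Their differences were -0.65 and -0.24 (adjusted p = 0.275 and 0.56 in limma), and Col4a5 was at -0.38 with normexp. The second probe of Col4a6 gave 0.21.

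Of the chains outside these classes, Col8a2 and Col26a1 had the widest separate groups. Col8a2, of the hexagonal network collagen VIII of vessels and the cornea, was at -1.75, -1.37 and -0.58 in young mice and at -2.46, -2.96 and -2.55 in aged mice (log2 difference -1.42, SE 0.32, adjusted p = 0.153, and -0.78 with normexp). Col26a1 was at -1.24, -1.39 and -1.22 in young mice and at -3.24, -3.45 and -5.63 in aged mice, where 1 array was well above background (adjusted p = 0.145). With normexp background correction Col26a1 passed the threshold, at a difference of -1.14. Col7a1, the anchoring fibril chain of epithelial junctions, was 0.18 higher (adjusted p = 0.6 in limma). Its groups met without overlap, at 3.698 in young mouse 1 and 3.700 in aged mouse 1. Col23a1, a transmembrane chain, was 0.67 higher, but -0.06 with normexp, and its second probe gave -0.06. Col15a1 and Col18a1, the multiplexins of basement membrane zones, gave 0.08 and -0.43, with Col15a1 at -0.07 under median scaling, and the transmembrane chain Col25a1 gave -0.05.

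Not tested, because fewer than 3 arrays were well above background, were 13 chains. Col2a1 reached this level on 2 young arrays and no aged array, Col4a3 on 1 young array, Col8a1 on 1 array of each group, Col10a1 and Col27a1 on 1 aged array and Col13a1 on 2. Col6a4, Col6a5, Col6a6, Col9a3, Col17a1, Col19a1 and Col28a1 did not reach it on any array. Several chains lie next to each other in the genome. Their log2 differences, not tested against each other, were -0.72 and 0.07 for Col3a1 and Col5a2, 0.40 and -0.10 for Col4a1 and Col4a2, -0.18 and -0.74 for Col6a2 and Col6a1, and -0.24 and -0.65 for Col4a6 and Col4a5.

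Fibroblasts and tendon cells are the main collagen-making cells of a muscle with its tendon ends, so their markers were read on the same arrays. Of 12 fibroblast markers 8 were lower in aged mice, none passed the threshold, and the median was -0.22. Their medians were -0.11, -0.16 and -0.16 in aged mice 1 to 3, and the summed linear level, to which Dcn gave the largest share, was 512 to 546 in young and 279 to 437 in aged mice. Decorin (Dcn), a small proteoglycan on collagen fibrils, was at 8.43, 8.36 and 8.48 in young mice and at 8.28, 7.56 and 6.87 in aged mice. Its difference of -0.85 was the lowest of the 12, beside -0.63 for Gsn, an actin-severing protein, and 0.48 for Ly6a, the surface marker Sca-1. Of 9 tendon cell markers 8 were lower, 1 (Kera) passed the threshold, and the median was -1.58. For the 6 of them well above background on all arrays it was -1.36, with 5 lower. The medians of all 9 were -1.35, -2.23 and -1.92 in aged mice 1 to 3. Their summed linear level was 73.0 to 82.5 in young and 48.2 to 84.8 in aged mice, no marker was at 0, and Cilp2 was not well above background on any aged array. Thbs4, an adhesive matrix protein of tendon and muscle, was at a difference of -0.89, Fmod, fibromodulin, at -1.30, and Scx, a tendon transcription factor, at 1.35. The median of the tendon cell markers was below the young range on every aged array. So were the medians of the perineurium and Schwann cell markers and of the smooth muscle and pericyte markers. The same held for all collagen genes together, for the FACIT and basement membrane classes, and for the genes of secretion and propeptide removal described below. The part of any cell type in the collagen values was not tested.

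**Figure D4:**
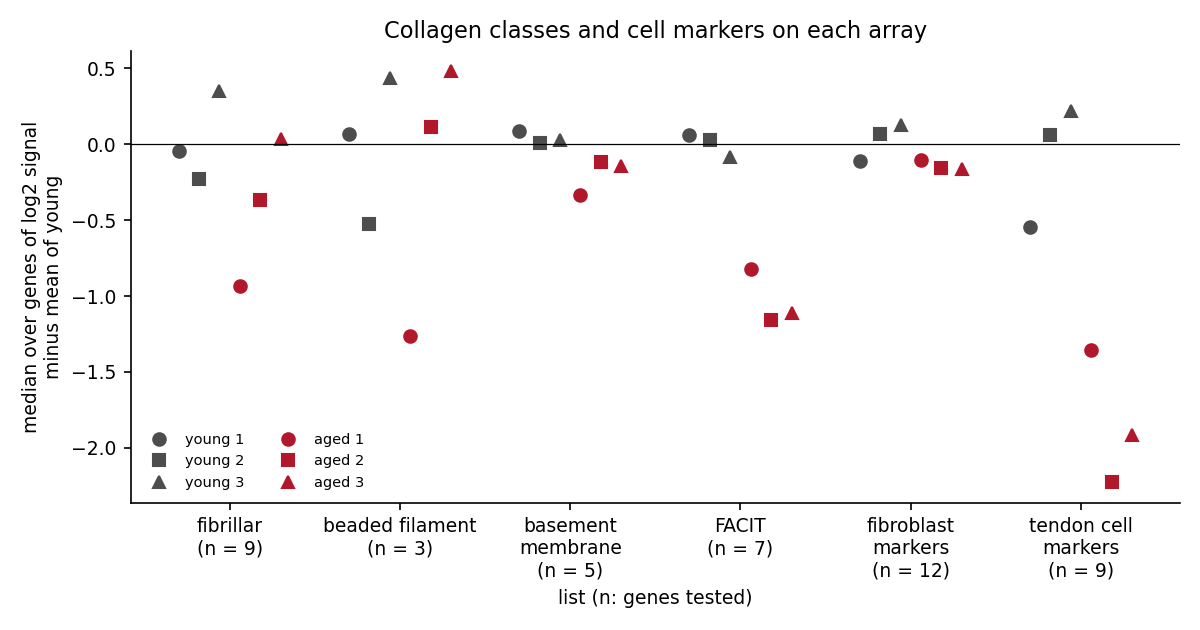
Median over the genes of each list of the log2 signal minus the young mean, per array, for 4 collagen classes and 2 cell marker lists (n: genes tested). The 3 aged arrays lay below all young arrays for the FACIT class, the basement membrane class and the tendon cell markers. For the beaded filament class aged mouse 1 lay apart from aged mice 2 and 3. For the fibrillar class the aged arrays were graded, with aged mouse 1 lowest and aged mouse 3 within the young range.

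Markers of other cells that a muscle holds were also read. The median was -0.08 over 8 endothelial genes, -0.33 over 8 smooth muscle and pericyte genes, -0.24 over 7 adipocyte genes, and 0.55 over 9 macrophage genes, of which 8 were higher and none passed the threshold. It was -0.67 over 8 perineurium and Schwann cell genes, of which 6 were lower and 1 (Prx) passed. None of the endothelial, smooth muscle, pericyte and adipocyte genes passed.

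Genes that fold, process, cross-link, break down or bind collagen were described next, and none of the 44 tested passed the threshold. Of 18 genes of chain folding and hydroxylation, 11 were lower and the median was -0.10. P3h3, a prolyl 3-hydroxylase, was at 0.50, 0.69 and 0.44 in young mice and at -0.11, -0.12 and -0.16 in aged mice (log2 difference -0.67, adjusted p = 0.153 in limma). P4hb, the disulfide isomerase subunit of prolyl 4-hydroxylase, gave 0.61 with aged mice higher and groups apart. Of 9 genes of secretion and propeptide removal, 8 were lower and the median was -0.37. The largest there were Pcolce2, which enhances propeptide cleavage, at -0.76, and Bmp1, the C-propeptide protease, at -0.64, both with separate groups.

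Of 5 cross-linking enzymes 1 was lower: Loxl2, a lysyl oxidase, was at 1.45, 1.87 and 2.53 in young mice and at 0.52, 0.76 and 1.15 in aged mice (log2 difference -1.14, adjusted p = 0.203). Lox, the founding lysyl oxidase, gave 0.64 with overlapping groups. Of 5 genes of collagen breakdown and uptake 3 were lower, with a median of -0.34. Ctsk, the collagen-cleaving protease cathepsin K, was at 1.79, 1.81 and 1.90 in young mice and at 0.94, 0.77 and 0.77 in aged mice, a difference of -1.01 (SE 0.15, adjusted p = 0.067). The aged values of Ctsk lay close together, and all were below the young values. Mrc2, a receptor for collagen uptake, gave -0.65 with an SE of 0.78. Of 7 collagen receptors 4 were lower, with a median of -0.19, and the largest were the integrin chains Itga10 (-0.87, adjusted p = 0.176, separate groups) and Itga1 (-0.63).

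**Figure D5:**
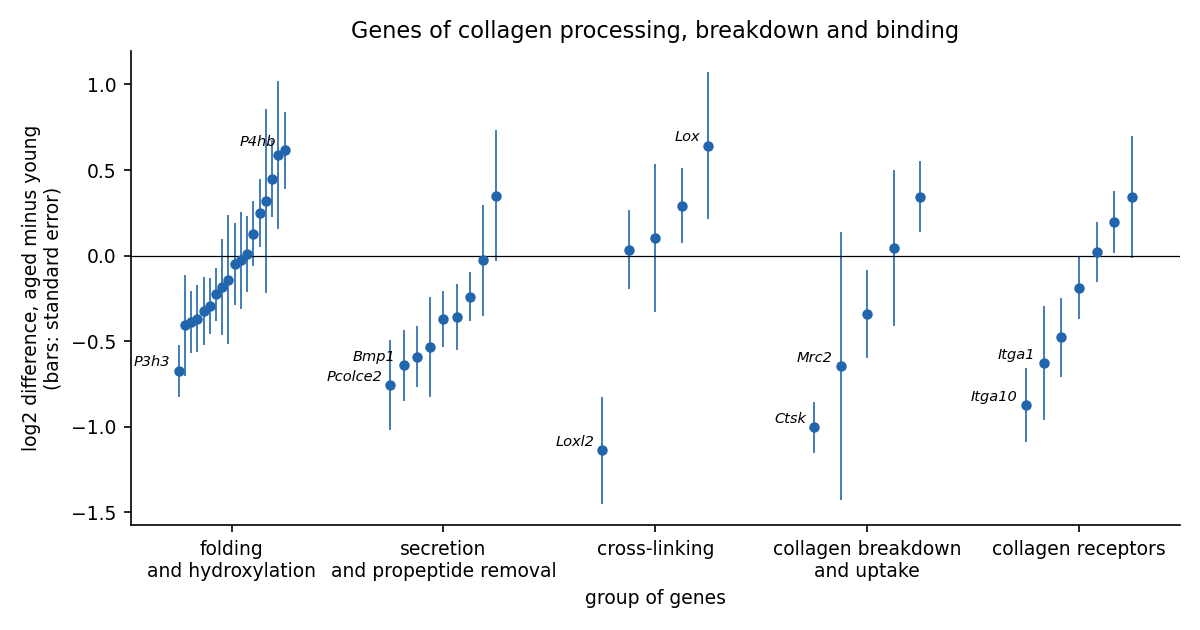
Log2 difference, aged minus young, with SE, of each tested gene that folds, secretes, cross-links, breaks down or binds collagen, by group and ordered by size within it; the 2 largest by size are named. All lie between -1.14 and 0.64, and none passed the adjusted threshold in limma.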

How the data were processed

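The authors deposited the Agilent Feature Extraction output of each array, whose processed signal is a linear intensity. Background and trends across the array had been removed by that software, and the arrays had not been scaled to each other. The submitters' processing notes name Feature Extraction 9.5 and the file headers 11.0.1.1. The series matrix held the same intensity (largest log2 difference 0).

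Of 62976 spots per array 59305 were not controls. Outlier spots (161 to 212 per array) were left out, log2 signals of the spots of a probe were averaged, and the 75th percentile over probes was subtracted. It was 300, 258 and 209 in young and 310, 287 and 270 in aged mice, as signal before log2. Gene symbols came from matching accessions to RefSeq transcripts of GRCm38.p6: 28325 of 55681 probes had a symbol and 27356 kept the identifier of the file. The array was designed on another build, so no probe coordinates are given. Probes had to be well above background on 3 or more arrays, and a gene with several such probes took the one whose mean over the 6 arrays was highest.

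Age was tested with lmFit and eBayes of limma 3.58.1 (R 4.3.3), without covariates. P-values were adjusted by Benjamini-Hochberg over all 20900 genes, and 0.05 was the threshold. The script was tested on simulated data first. A bound ("at least") sets the young mean against, per aged array, the higher of the probe's own signal and the lowest signal among probes well above background. It belongs to the scale used here, not to normexp, and has no error term. The number of arrays limits the precision. Summed levels are sums over a list of signals divided by the array's 75th percentile.

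The members, lists, tests and alternatives were chosen with earlier results of these data known. Values per mouse are given for Col1a1, Col3a1 and Col6a2 (measured by RT-PCR in the study), for collagen genes past the threshold, for the 3 chains with the highest mean signal in each of the 4 classes, and for collagen genes with separate groups and a log2 difference of 1 or more in size. Of each pathway list the 2 genes with the largest difference are named, and of marker lists up to 3 with the highest signal (signal served here to choose genes, not to rank their expression), except Kera, Prx and Cilp2, which were named after their values were seen. The alternatives were normexp background correction (offset 50), quantile normalization, median scaling, the percentile over probes detected on all arrays, the series matrix, no filter or a filter on all 6 arrays, the mean of a gene's probes, a mean-variance trend, blocking on the slide row or on the replicate number, and omission of each mouse in turn. Normexp used the median spot signal.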

Additional observations from a re-analysis of the deposited data

How the results depend on the processing

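The count of collagen genes past the threshold, 2, was 1 with median scaling (Col11a1), with the filter on all 6 arrays and with a mean-variance trend (Col22a1 in both), 0 with no filter, with the slide row as a block and with the replicate block, and 0 to 2 on leaving out a mouse. The count over all genes, 53, was 8 with no filter, 35 with the filter on all 6 arrays, 5 with the replicate block and 1 to 199 on leaving out a mouse (199 without aged mouse 1, 1 without aged mouse 3). Deviations of mice with the same replicate number correlated at -0.06, -0.27 and 0.03, and those of mice with different numbers between -0.21 and 0.35. With 3 mice per group these values cannot show whether the numbers pair the mice.

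The fibrillar median of -0.72 ranged from -1.06 to -0.019 on leaving out a mouse. The basement membrane median of -0.24 was -0.38 with median scaling, -0.10 with a gene's probes averaged, -0.33 with the row block and -0.32 to -0.14 on leaving out a mouse. The beaded filament median of -0.18 was -1.26 with the row block and -0.53 to 0.30 on leaving out a mouse. The FACIT median of -1.03 was -0.73 with normexp, -1.18 with median scaling, -0.64 with no filter, -0.84 with the filter on all 6 arrays, -0.85 with probes averaged, -0.82 with the row block, and -1.13 to -0.97 on leaving out a mouse.

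Directions turned for Col3a1 (0.011), Col6a2 (0.30) and Col6a3 (0.37) without aged mouse 1, for Col4a1 (-0.023) and Col6a3 (0.17) without young mouse 3, and for Col4a2 with normexp (0.060) and without aged mouse 2 (0.094). On leaving out a mouse, Col3a1 ranged from -1.27 to 0.011, Col4a1 from -0.023 to 0.66, Col4a2 from -0.24 to 0.094, Col6a2 from -0.50 to 0.30 and Col6a3 from -0.53 to 0.37. The signs also turned for Col5a2 (-0.13 to 0.43), Col5a3 (-0.46 to 0.17), Col11a2 (-0.13 to 0.56), Col15a1 (-0.14 to 0.39) and Col25a1 (-0.27 to 0.26). Over the scalings the direction of Col4a2, Col5a2, Col11a2, Col15a1 and Col23a1 was not the same. Median scaling moved the median of all genes from -0.06 to -0.21. The cause was not tested for any of these changes.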
